A study of Mus musculus with 146 samples.

Results

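Whole blood of female mice was compared after repeated exposure to ethanol vapor or to air. The libraries were chosen by their titles, which carry F for female, V for vapor or C for control, and BLD for blood. This gave 10 libraries of chronic intermittent ethanol (CIE) mice and 9 of air-exposed (Air) mice, 19 of the 146 libraries in the series. The series holds blood, amygdala, hypothalamus and prefrontal cortex of 37 C57BL/6J mice of both sexes, and each library comes from 1 mouse. The labels give no age and no genotype beyond the strain.

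All of these females first drank 15% ethanol in 2-h sessions with a choice of water, 5 days a week for 4 weeks. CIE mice then received 1.75 g/kg ethanol with 68.1 mg/kg pyrazole, which blocks alcohol dehydrogenase, and breathed ethanol vapor for 16 h of each day over 4 days. The blood alcohol aimed at was 175 to 250 mg%. Air mice received the same pyrazole dose in saline and the same chambers with air, and they drank ethanol in every drinking period too. The comparison is therefore of vapor and injected ethanol on top of drinking and pyrazole, with no group free of ethanol. After 72 h of rest, 5 days of drinking followed. The cycle was run 4 times, a last exposure of 4 days came after it, and blood was taken 1 week later. The blood libraries started from 2000 ng of RNA, globin transcripts were depleted, and 3′ tags were sequenced, so that counts do not grow with transcript length.

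RNA of whole blood comes mainly from reticulocytes, the young red cells that still hold RNA, from platelets and from white cells. Neutrophils and monocytes carry out innate defense, while B cells, T cells and natural killer (NK) cells recognize antigens or abnormal cells. Heavy ethanol use is known in general for effects on red cell production, on lymphocyte numbers and on innate signaling, and ethanol is oxidized to acetaldehyde and acetate mainly in the liver. Genes that neurons express strongly are low or silent in most circulating cells, so their levels in blood are given beside those in brain.

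Reads counted on genes ranged from 683566 in CIE mouse 23 to 1460529 in Air mouse 26, with a median of 1055849 in CIE and 1105270 in Air. Means were 1036184.8 and 1129125.4 reads, and an exact permutation test over 92378 splits gave p = 0.234 (adjusted over 2 tests 0.419). Reads not assigned to a gene made up 34.5% in CIE and 34.2% in Air (exact permutation p = 0.419). At this depth 7849 genes passed the filter on low counts and were tested.

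The labels were checked first. Xist, the RNA of the silenced X chromosome, lay between 61.4 and 368.4 CPM (counts scaled by gene reads) in the female blood libraries and between 12.9 and 33.1 in the 18 male ones. Of the Y chromosome, Uty, Kdm5d, Ddx3y and Eif2s3y summed to 4.49 to 21.9 CPM in females and to 76.2 to 167.9 in males. The sexes did not overlap on either measure, and blood was marked by Alas2, the first enzyme of heme synthesis in red cells, at a mean of 14850 normalized CPM in Air and 20300 in CIE. Snap25, a synaptic protein gene of neurons, stood at 153.6 and 226.3 CPM in the same libraries.

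Some libraries stood apart before any comparison of groups. CIE mouse 22, Air mouse 26 and Air mouse 27 lay at one end of the first principal component, which held 32.8% of the variance. Red cell and reticulocyte genes took 7.58, 6.98 and 8.29% of their reads, against 9.72 to 14.7% in the other 16 libraries. CIE mouse 22 also had the highest summed neutrophil genes of all, and Air mouse 28 had high levels of genes of the amino acid response and of interferon. The mouse numbers form 2 runs. CIE mice 21 to 25 with Air mice 26 to 30 make the first, and CIE mice 31 to 35 with Air mice 37 to 40 the second. The labels do not say what the numbers stand for, but the ERCC spike-in reads moved with them. They were 850 to 1526 in mice 21 to 26, 19 to 24 in mice 27 to 29, and 233 to 644 in mice 30 to 40. These steps fall inside the first run, where the CIE mice had 850 to 1369 reads and Air mice 27 to 30 had 19 to 338. Only Air mouse 26, at 1526, lay with the CIE mice. In the second run CIE mice had 233 to 314 and Air mice 334 to 644. Values within each run are given beside many of the results below, but they do not separate treatment from these steps.

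Over all genes, few differences passed the test. In female blood 2 of 7849 genes, or 0.0255% of those tested, passed edgeR at an adjusted p (Benjamini-Hochberg) under 0.05. Apol11a, of the apolipoprotein L family, rose, and Gzma, the gene of granzyme A, a protease that cytotoxic lymphocytes release into target cells, fell. At an unadjusted p under 0.05 there were 1065 genes (13.6%), 589 of them higher in CIE (7.5%) and 476 lower (6.06%). The median log2 fold change of all genes was -0.02, with 47.2% of genes higher in CIE.

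The balance between higher and lower depended on scaling. With the TMM scaling used throughout, 55.3% of genes at an unadjusted p under 0.05 were higher in CIE, against 65.8% with RLE factors and 67.5% with DESeq2. With library size alone only 8.3% of them were higher, and the median of all genes shifted by -0.24 on the log2 scale. Changes under library size are therefore read relative to that shift. DESeq2 called 15 genes, 8 higher and 7 lower, and limma on the deposited values called the same 2 genes as edgeR.

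Apol11a (ENSMUSG00000091650.2, chr15:77508271-77518051, plus strand, GRCm38) codes for a member of a family of lipid-binding proteins that insert into membranes. In normalized CPM (after TMM scaling, used for single genes unless said otherwise), it was at 14.5 to 58.1 in Air with a median of 34.0, and at 27.0 to 299.0 in CIE with a median of 179.4. Of the 10 CIE mice 9 lay above every Air mouse, and CIE mouse 22, the library low in red cell transcripts, lay below the Air median. Means were 170.4 ± 82.1 (SD) in CIE and 34.7 ± 15.4 in Air. The log2 fold change was 2.33 (standard error 0.33, adjusted p = 0.00167), and it stayed between 2.19 and 2.47 when each of the 19 libraries was left out in turn.

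Apol11b (ENSMUSG00000091694.9, chr15:77633946-77643286, minus strand), its neighbor, is the abundant member. It stood at 1029 to 3996 CPM in Air with a median of 2724, and at 1679 to 9640 in CIE with a median of 7559. CIE mouse 22 was again lowest of its group, and the groups overlapped. The log2 fold change was 1.38 (standard error 0.30), which did not pass (p = 0.000126, adjusted p = 0.137). Without CIE mouse 22 it was 1.51 with an adjusted p of 0.00505. Without all 3 libraries low in red cell transcripts it was 1.30, adjusted p = 0.00151. DESeq2 called it as well, at 1.41 and an adjusted p of 0.00129. The family list has 13 members, of which only these 2 were tested. The other 11 had between 0 and 121 reads in all 19 libraries together. Of these, Apol10a had the most reads, and with no filter on low counts it was called at a log2 fold change of 2.40 (adjusted p = 0.0155), a gene singled out after its values were seen.

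The Apol genes were also set against the red cell list without hemoglobin genes. Per 1000 CPM of that list, Apol11b was at 17.01 to 39.2 in Air with a median of 23.3, and at 33.5 to 59.9 in CIE with a median of 45.8. The ranges overlapped only at their ends. Apol11a per 1000 of the list was 0.163 to 0.566 in Air with a median of 0.339, and 0.540 to 2.76 in CIE with a median of 1.01. With the red cell level as a covariate, Apol11b had a log2 fold change of 0.83 and passed the test (adjusted p = 0.00425). The median of the 2 tested family members was 1.292 in that fit, against 1.855 without the covariate.

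The promoters of the called genes and of the 2 relatives on chromosome 15 are shown because Apol10a and Apol11b were each called in some settings. They come from RefSeq (GRCm38.p6), 250 bases before and 50 after the start, at chr15:77508019-77508318 (plus) for Apol11a, chr15:77643237-77643536 (minus) for Apol11b, chr15:77476797-77477096 (plus) for Apol10a and chr13:113100932-113101231 (minus) for Gzma. Capitals mark GAAA, any 2 bases and GAAA again, the core of interferon response elements, searched on both strands.
Apol11a: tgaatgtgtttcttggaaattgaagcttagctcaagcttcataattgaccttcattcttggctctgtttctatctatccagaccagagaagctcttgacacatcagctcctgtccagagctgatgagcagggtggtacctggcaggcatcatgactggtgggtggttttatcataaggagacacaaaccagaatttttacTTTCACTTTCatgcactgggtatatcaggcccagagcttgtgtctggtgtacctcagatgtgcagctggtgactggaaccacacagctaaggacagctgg
Apol11b: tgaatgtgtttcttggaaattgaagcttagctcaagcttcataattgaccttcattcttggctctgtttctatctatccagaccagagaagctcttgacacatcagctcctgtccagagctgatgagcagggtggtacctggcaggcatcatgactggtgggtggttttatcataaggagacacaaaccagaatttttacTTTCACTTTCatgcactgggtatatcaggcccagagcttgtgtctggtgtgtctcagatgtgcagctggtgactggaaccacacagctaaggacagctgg
Apol10a: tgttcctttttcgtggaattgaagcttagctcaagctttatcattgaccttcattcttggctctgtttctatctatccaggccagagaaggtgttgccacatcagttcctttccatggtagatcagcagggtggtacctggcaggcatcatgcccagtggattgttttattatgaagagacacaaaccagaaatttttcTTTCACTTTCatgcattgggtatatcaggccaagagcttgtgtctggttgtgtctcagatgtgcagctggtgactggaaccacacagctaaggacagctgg
Gzma: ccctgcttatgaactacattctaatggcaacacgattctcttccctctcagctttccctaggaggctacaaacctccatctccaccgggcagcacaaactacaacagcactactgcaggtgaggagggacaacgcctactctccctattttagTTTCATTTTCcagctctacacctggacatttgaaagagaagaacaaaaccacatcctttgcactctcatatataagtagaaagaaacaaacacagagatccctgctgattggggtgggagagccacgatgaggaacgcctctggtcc

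Apol11a and Apol11b shared 298 of their 300 promoter bases, position by position. Each of the 4 windows held the interferon response core 1 time. The match lay 40 bases before the start in both Apol11 genes, 41 in Apol10a and 87 in Gzma. Among 27025 promoters of the same length, 943 held the core (3.49%), and a match describes the letters only. The GATA letters AGATAA, found in 11.4% of promoters on either strand, were in none of these 4 windows. Other forms of the GATA site were not searched for, so sites of other spelling may be present. The 3′ ends, where tags are read, were compared with all other genes. In the last 500 bases of the transcripts 0 of 401 windows of 100 bases in Apol11a occurred in another gene. For Apol11b 41 of 835 did (4.91%, all in Apol10a). Of windows of 25 bases, 174 of 476 in Apol11a (36.5%) and 259 of 985 in Apol11b (26.3%) occurred in another gene, most often Apol10a.

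**Figure D1:**
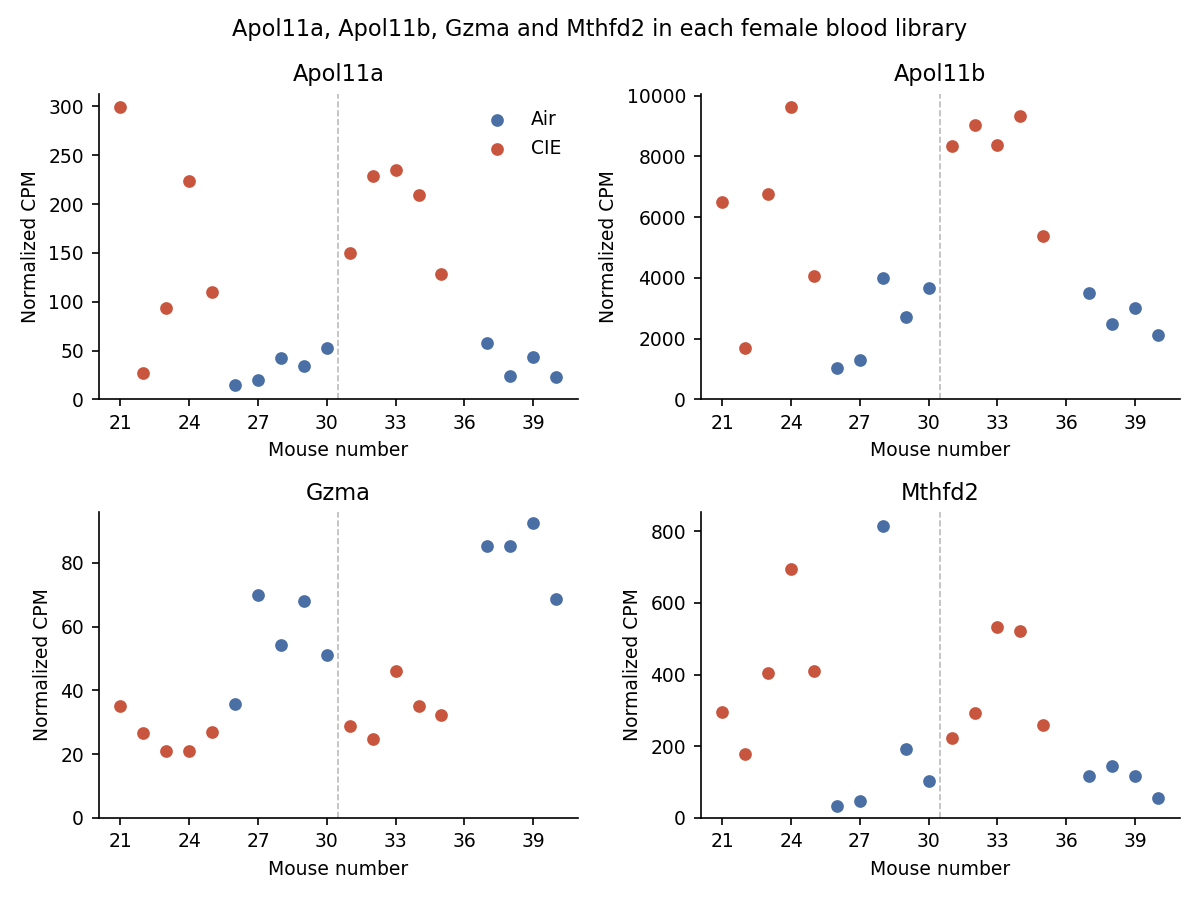
Normalized CPM of Apol11a, Apol11b, Gzma and Mthfd2 by mouse number, 1 point per female blood library, Air in blue and CIE in red, with a dashed line between the 2 runs of numbers. Apol11a was at 14.5 to 58.1 in Air and 27.0 to 299.0 in CIE, and Air mouse 28 reached 814.6 in Mthfd2.

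Within the runs of mouse numbers Apol11a kept its direction. In mice 21 to 30 it was at 14.5 to 52.9 CPM in Air and 27.0 to 299.0 in CIE, and in mice 31 to 40 at 23.4 to 58.1 and 128.6 to 235.1. The groups overlapped in the first run through CIE mouse 22, and they did not overlap in the second. Fitted alone, the first run gave a log2 fold change of 2.25 that did not pass (adjusted p = 0.178), and the second gave 2.40. With edgeR 0 genes passed in the first run, where 752 were higher and 414 lower at an unadjusted p under 0.05. In the second run 13 passed, the 2 called genes and Apol11b among them.

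Gzma (ENSMUSG00000023132.8, chr13:113093825-113100981, minus strand) was at 35.7 to 92.3 CPM in Air with a median of 68.7, and at 20.8 to 45.9 in CIE with a median of 27.8. Every CIE mouse lay below the Air median, and the groups overlapped only where CIE mouse 33 lay above Air mouse 26. The log2 fold change was -1.17 (standard error 0.17, adjusted p = 0.00167), between -1.25 and -1.10 with each library left out. In mice 21 to 30 Air was at 35.7 to 69.9 and CIE at 20.8 to 35.2, and in mice 31 to 40 at 68.7 to 92.3 and 24.8 to 45.9. Neither run had an overlap. The first run alone gave -1.05 (adjusted p = 0.171).

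Granzyme A was also set against its own cell class. Per 1000 CPM of the other NK and cytotoxic genes it was at 61.9 to 146.0 in Air with a median of 98.8, and at 26.7 to 77.1 in CIE with a median of 47.2. That list had 14 of 29 members tested, with 1 higher in CIE and a median of -0.23. Klrd1, the CD94 chain of NK receptors, had a log2 fold change of -0.65 (34.1 ± 7.66 CPM in Air, 21.9 ± 4.95 in CIE, adjusted p = 0.179) and was lower in 10 of 10 CIE mice than the Air median. Prf1, the pore-forming perforin, was at -0.32 (p = 0.0593). Ccl5, a chemokine that cytotoxic T cells store, picked after its values were seen, was the member above 0, from 201.4 to 294.5 CPM (0.54, p = 0.00857). Ccl5 is the most abundant gene of the list, at 239.0 plain CPM, so the ratio above is lower in part through it. Of 34 granzymes and killer lectin-like receptors 5 were tested, with a median of -0.32, and 4 of them were lower.

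The genes next in order of p missed the threshold. On the lower side were Plgrkt, a plasminogen receptor (-0.62, adjusted p = 0.116), and Hsd11b1, which reactivates glucocorticoids (-0.66, 0.116). Iglc1, an immunoglobulin light chain gene, had -0.87 (0.116), Il4i1, an amino acid oxidase of antigen-presenting cells, -0.76 (0.120), and Vipr1, a receptor for vasoactive intestinal peptide on T cells, -1.03 (0.162). Gatad2a of the NuRD complex (-0.42), Ccnd2, cyclin D2 (-0.46), Trp53bp2 (-0.84), Smad7, an inhibitor of TGF-beta signaling (-0.67), and Ifi206 (-0.67) followed. Plgrkt, Hsd11b1 and Gatad2a were the 3 genes whose groups did not overlap (0.0382% of genes), each lower in CIE. Plgrkt was at 24.4 to 36.4 CPM in Air and 12.5 to 23.7 in CIE.

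On the higher side were Pnpla2, the lipase that starts triglyceride breakdown (66.7 ± 19.2 to 115.5 ± 30.6 CPM, 0.80, adjusted p = 0.162), and Ldhb, a lactate dehydrogenase subunit (0.89, 0.162). The X-linked gene 2610002M06Rik (0.70), Ssbp2, a DNA-binding regulator of blood stem cells (0.57), Cep290 of the cilium (0.82) and Tes3-ps (0.83) came next. The remaining 4 of the 12 smallest p values, B230209E15Rik (1.11), Gng3 (0.78), Map1a (0.65) and Vgf (0.79), belonged to genes whose level in blood was under 10% of that in brain, as did Ldhb at 8.55%. Several genes of both sides passed in other settings. DESeq2 called B230209E15Rik, Iglc1, Hsd11b1, Pnpla2, Ccnd2, 2610002M06Rik, Ldhb, Vipr1 and Il4i1. At a minimum count of 30 Pnpla2, 2610002M06Rik and Iglc1 passed, in all 37 blood libraries Plgrkt and 2610002M06Rik, and with no filter Iglc1. Pnpla2 also passed with the share of unassigned reads as a covariate and in mice 31 to 40 alone, and Ldhb without Air mouse 30 (adjusted p = 0.0474).

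White cell classes come next. In bulk blood, fewer cells of a type and less RNA per cell cannot be told apart. All 23 B cell genes were tested and all 23 were lower in CIE, with a median of -0.35 and 14 at an unadjusted p under 0.05, against 6.06% of all genes. None passed the adjusted threshold with edgeR, and none was among the 15 genes of DESeq2. Ms4a1, the CD20 antigen, was at 259.8 to 351.8 CPM in Air and 131.9 to 288.6 in CIE (300.5 ± 35.5 and 208.3 ± 57.4, -0.53, adjusted p = 0.249). Fcer2a, the low-affinity IgE receptor, had -0.55, Spib, a transcription factor of B cells, -0.48, and Ighm, the IgM heavy chain, -0.41. Cd79a, a receptor subunit that defines the lineage, had -0.36. The summed B cell genes had a median of 6444 plain CPM (scaled by gene reads alone) in Air and 4263 in CIE, led by Cd74 at 2007. Air mice 26 and 27 and CIE mouse 22 were highest, and CIE mice 24 and 33 were lowest. Spib, Ighm and Cd74 were picked after their values were seen.

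The lower B cell level sat in the first run of mice. The list median was -0.66 in mice 21 to 30 and 0.05 in mice 31 to 40, and -0.25 without the 3 libraries low in red cell transcripts. With library size alone it was -0.62, below the -0.26 of all genes. MHC class II genes, which B cells and monocytes use to present antigen, followed the same line. All 10 were lower, with a median of -0.25, -0.55 in the first run and 0.08 in the second, and Ciita, their master regulator, had -0.35. Of 14 plasma cell and immunoglobulin genes 6 were tested, 5 of them lower, with a median of -0.42. Iglc2 had -0.50, Jchain, which links antibody polymers, -0.61, and Xbp1, which drives secretion, 0.13. The files hold 0 reads on Igkc, the main light chain gene.

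T cell genes lay below 0 as well. Of 26 members 23 were tested, 21 were lower and 11 were lower at an unadjusted p under 0.05 (6.06% of all genes), with a median of -0.31. At that p 1 was lower in mice 31 to 40 (5.44% of all genes there) and 3 without the 3 libraries low in red cell transcripts (4.84%). Tcf7, a factor of naive and memory T cells, was at 62.4 to 124.3 CPM in Air and 40.3 to 85.7 in CIE (-0.50, p = 0.00138), and Cd4, the helper coreceptor, had -0.57. Cd3e and Cd3d, subunits of the T cell receptor complex, went apart, at 0.08 and -0.38. The summed list was at 1323 plain CPM in Air and 1067 in CIE by median. The list median was -0.45 in mice 21 to 30, -0.07 in mice 31 to 40 and -0.15 without the 3 libraries, and it stayed below the median of all genes under every scaling.

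Neutrophil genes pointed the other way in the 2 runs. All 14 tested of 27 were above 0, with a median of 0.25 and none at an unadjusted p under 0.05 with edgeR. Mmp8, a granule collagenase, had 0.75 with 155.9 CPM in CIE mouse 22, and S100a9 and S100a8, the calprotectin subunits, had 0.25 and 0.01. The list median was 0.89 in mice 21 to 30 and -0.79 in mice 31 to 40, where S100a8 passed the test at -0.84 (adjusted p = 0.0256). Leaving out CIE mouse 22 alone turned the median to -0.10, and leaving out all 3 libraries low in red cell transcripts turned it to -0.14. The summed list had a lower median in CIE than in Air, 2105 against 2749 plain CPM, with 11292 in CIE mouse 22. No direction is therefore given for neutrophils.

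Monocyte genes were split. Of 25 members 21 were tested, 10 were higher and the median was -0.07, with Klf4, a factor of monocyte differentiation, at -0.56 (p = 0.0328), Cd300e at -0.42 and Csf1r, the receptor for macrophage growth factor, at 0.11. Their median turned to 0.09 without Air mouse 27 and to 0.10 with the red cell level as a covariate. Of 13 dendritic cell genes 4 were tested, with a median of -0.07 that was 0.04 without the 3 libraries low in red cell transcripts (Itgax -0.10, Runx2 0.05, Bst2 -0.45). Of 12 basophil and eosinophil genes only Gata2 was tested, at -0.31 (0.03 in mice 21 to 30, -0.67 in mice 31 to 40), so that these classes were hardly covered at this depth. Platelet genes had 18 of 22 tested, a median of -0.12 and 2 above 0. Their median was 0.01 in mice 21 to 30, -0.24 in mice 31 to 40, and -0.42 with the red cell level as a covariate, where 15 were lower at an unadjusted p under 0.05 (7.76% of all genes in that fit). Pf4 and Ppbp, their stored chemokines, had 0.02 and -0.09, and Gp1ba and Gp6, their adhesion receptors, -0.28 and -0.27.

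**Figure D2:**
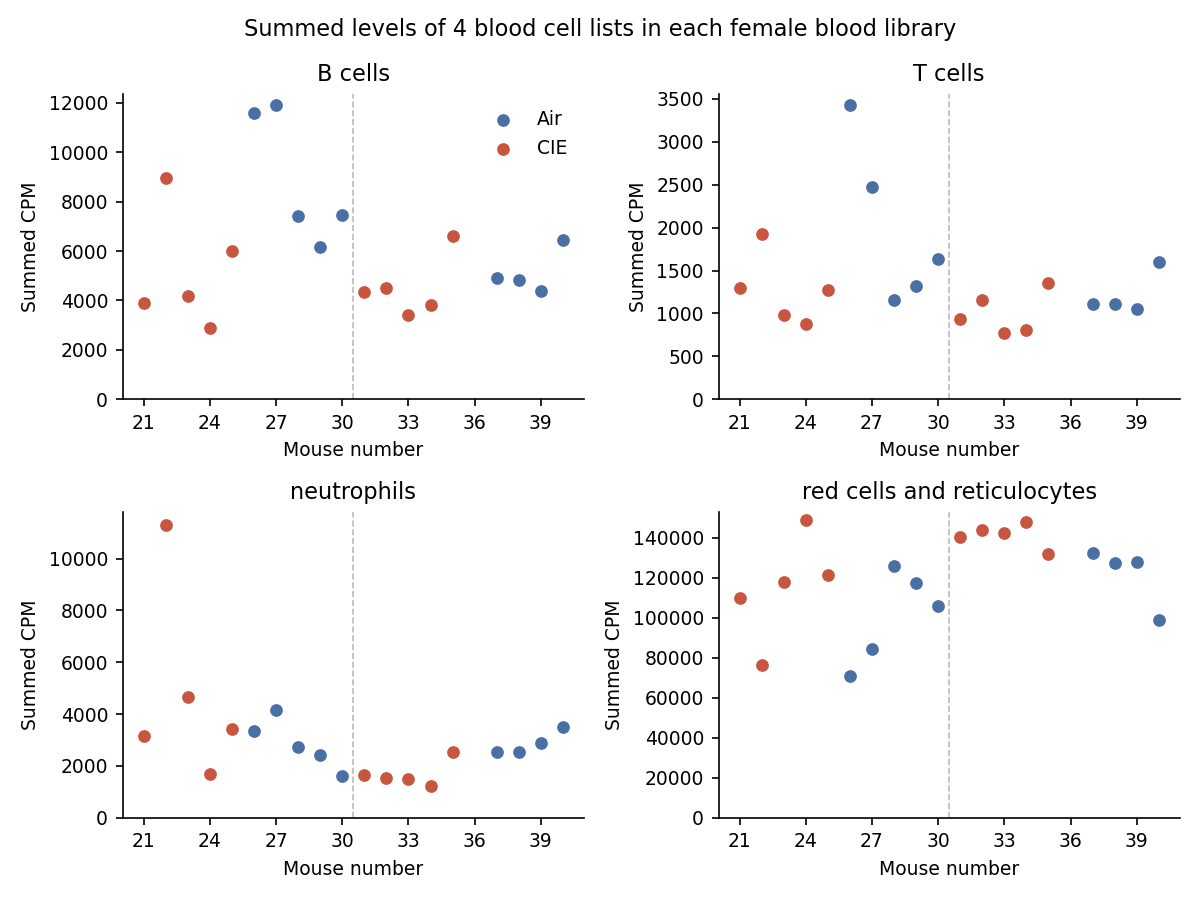
Summed plain CPM of the B cell, T cell, neutrophil and red cell lists by mouse number, 1 point per female blood library, Air in blue and CIE in red. CIE mouse 22 stands at 11292 for neutrophils, and Air mice 26 and 27 are the highest for B cells.

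Red cell and reticulocyte genes lay above 0. Of 31 names 30 were in the files and 25 were tested, all 25 higher in CIE, with a median of 0.44. At an unadjusted p under 0.05 there were 2 of them, against 7.5% of all genes, and none passed with edgeR. That count was 12 in mice 31 to 40 (6.84% of all genes there) and 22, with a median of 0.67, when the neuron percent of brain level was a covariate (10.8% of all genes). Tfrc, the transferrin receptor that brings iron into young red cells, was at 39.0 to 225.7 CPM in Air with a median of 65.9, and at 74.4 to 372.6 in CIE with a median of 165.3. Every CIE mouse lay above the Air median, and Air mouse 28 was high among Air mice (log2 fold change 0.80, p = 0.0184). Kel, a red cell surface protease, had 0.53, Slc4a1, the band 3 anion exchanger, 0.44 and Alas2 0.45. The summed list was 117500 plain CPM in Air and 136200 in CIE by median. Its median fold change was 0.41 in the first run, 0.47 in the second and 0.36 without the 3 libraries low in these transcripts. It was 0.23 with library size alone, above the -0.26 of all genes.

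Heme synthesis genes shared this. Of 16 members 15 were tested and 14 were higher, with a median of 0.45. Abcb10, a mitochondrial transporter of red cell precursors, had 0.57 (p = 0.0074), and Alas1, the form of other tissues, 0.27. Cell cycle genes had a median of 0.52 over 14 of 29 tested, 11 of them higher. Mki67, a mark of dividing cells, went from 48.8 ± 21.3 to 74.1 ± 32.1 CPM (0.63), Tpx2 of the spindle had 0.67 and Top2a 0.51, while Mcm6 had -0.38. With the red cell level as a covariate the medians were -0.03 for the red cell list, 0.03 for heme synthesis and -0.01 for the cell cycle list. The covariate is built from the red cell list, and the heme list shares 4 of its tested genes with it, so the first 2 of these medians follow in part from the fit.

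Energy metabolism showed small values that depended on scaling. Nuclear genes of oxidative phosphorylation had 61 of 78 tested and 53 higher, with a median of 0.17 that was -0.07 with library size alone, above the median of all genes in each case. Ndufa1, a complex I subunit on the X chromosome, was at 195.6 to 519.8 CPM in Air and 327.2 to 750.1 in CIE (0.51, p = 0.0147), Uqcr10 of complex III had 0.39 and Ndufa2 0.08. Mitochondrially encoded genes had 7 of 13 tested and all 7 higher, with a median of 0.16 (-0.07 with library size alone). Among them mt-Co1 had 0.30 and mt-Nd1 0.11. With the red cell level as a covariate the medians of both lists were 0.04 and -0.01.

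Glycolysis genes had 19 of 24 tested and a median of 0.06, which was -0.10 with library size alone, 0.28 in mice 21 to 30 and -0.11 in mice 31 to 40. The 3 members at an unadjusted p under 0.05 (7.5% of all genes were higher at it), Ldhb (0.89), Eno2 (0.51) and Aldoc (0.43), were all under 10% of their brain level in blood, while Hk1, the first kinase of the path, had -0.09 and Gpi1 0.00. The citric acid cycle had 21 of 21 tested and a median of -0.01 (0.02 with RLE factors). Idh3a, which oxidizes isocitrate, had 0.48 at 13.6% of its brain level, and Cs, which makes citrate, had 0.08.

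Fatty acid oxidation genes lay mostly below 0. Of 22 members 13 were tested and 11 were lower, 2 at an unadjusted p under 0.05 (6.06% of all genes) and none passing with edgeR. The median was -0.26, -0.19 in the first run and -0.03 in the second. Hadha, the trifunctional enzyme, went from 38.7 ± 4.63 to 32.3 ± 5.00 CPM (-0.26, p = 0.0275), Acaa2, a thiolase, had -0.35, Slc25a20, the carnitine carrier, -0.34 and Cpt1a, the entry step, 0.12. Cholesterol synthesis had 14 of 22 tested and a median of -0.02 (0.05 with the red cell level as a covariate), with Hmgcs1 at 0.38 (8.72% of its brain level) and Insig1, a brake on the path, at -0.48.

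Genes of ethanol metabolism had 11 of 21 tested and a median of -0.09. Aldh3a2, which oxidizes fatty aldehydes, went from 14.3 ± 3.01 to 9.42 ± 3.53 CPM (-0.54, p = 0.0118), and Acss1, which activates acetate in mitochondria, had -0.30 (p = 0.0451). Adh5 had -0.22, and Aldh1a1, at 1813 CPM in Air, had 0.46. The files hold 0 reads on Cyp2e1, an oxidase of ethanol. Antioxidant genes had 22 of 25 tested and a median of 0.14 (-0.05 with library size alone), with Txn1, thioredoxin, at 0.52, Sod2 at 0.43, the regulator Nfe2l2 at -0.18 and Gclc of glutathione synthesis at -0.16.

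Mthfd2 is a mitochondrial enzyme of folate metabolism, and its call turned on 1 library. It stood at 33.6 to 814.6 CPM in Air with a median of 116.2, and at 177.2 to 694.1 in CIE with a median of 350.3. All CIE mice lay above the Air median, and the highest of all was Air mouse 28. Its log2 fold change was 1.08 (p = 0.0235, adjusted p = 0.323), and without Air mouse 28 it was 1.95 and passed (adjusted p = 0.00414). The fit without Air mouse 28 called 4 genes. In mice 31 to 40 alone Mthfd2 had 1.80 and passed as well (adjusted p = 0.000963). Also called without Air mouse 28 was Atf5, a transcription factor of the amino acid response, chosen after its values were seen. It stood at 501.8 CPM in Air mouse 28 against a median of 40.2 in Air and 78.01 in CIE. It had -0.10 over all 19 libraries with edgeR and 1.22 without that mouse (adjusted p = 0.00625), so that its direction with edgeR hung on 1 library. DESeq2, run with defaults that can replace a count far from the rest of its group, gave 1.11 (adjusted p = 0.00129). In mice 31 to 40 alone Atf5 had 1.12 and passed (adjusted p = 0.0232).

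The lists around Mthfd2 were weaker. Serine and one-carbon genes had 7 of 21 tested, 4 of them higher, with a median of 0.19 that was -0.04 with library size alone. Tyms, which makes thymidylate, had 0.70 and Psph, the last step of serine synthesis, 0.19. Genes of the amino acid response under ATF4 had 21 of 31 tested, 14 of them higher, with a median of 0.06 (-0.14 with library size alone). Aars and Nars, tRNA synthetases, went from 13.7 ± 1.80 to 20.6 ± 5.48 CPM (0.55, p = 0.00157) and from 130.4 ± 33.4 to 196.6 ± 51.4 (0.60, p = 0.00234). Asns, asparagine synthetase, also chosen after its values were seen, had 1.18, and Atf4 and Ddit3 had 0.22 and 0.21.

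Protein turnover and stress lists lay near all genes. Ribosomal proteins had 43 of 84 tested and a median of -0.05 (-0.12 in mice 21 to 30, 0.09 in mice 31 to 40). Members lay between -0.30 and 0.53, with Rpl14 at -0.27, Rpl41 at 0.53, Rpl11 at -0.08 and Rpl12 at -0.04. Proteasome genes had 33 of 39 tested and a median of 0.01 (-0.24 with library size alone), with Psmd5 at 0.35, Psmc1 at -0.42, Psma1 at -0.20 and Psma2 at 0.05. Heat shock and unfolded protein genes had 15 of 22 tested and a median of -0.12, with the chaperones Hsp90aa1 at -0.31, Dnajb1 at -0.28 and Hsp90ab1 at 0.16. Glucocorticoid targets had 13 of 15 tested and a median of 0.04 (-0.14 with library size alone, 0.40 in the first run, -0.23 in the second, and -0.15 without CIE mouse 22). In that list Mt1 and Mt2, metallothioneins, had 0.44 and 0.58 and Tsc22d3 -0.10. Fkbp5 had 0.35 with CIE mouse 22 at 169.7 CPM, and -0.32 when that mouse was left out.

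Innate signaling lists gave no direction that was common to both runs of mice. Interferon-stimulated genes had 31 of 40 tested, 14 of them higher, with a median of -0.02 (0.07 in mice 21 to 30). Gbp7, a guanylate-binding protein (0.77, p = 0.00300), and Ifih1, a sensor of viral RNA (0.53, p = 0.00204), were higher at an unadjusted p under 0.05. At that p 2 other members were lower, and none of the list passed with edgeR. Over all genes 7.5% were higher and 6.06% lower at that p. Isg15 and Ifit1 had 0.36 and 0.15, and Isg15 peaked in Air mouse 28 at 1740 CPM and CIE mouse 21 at 1712. The kinases of the pathway, Jak1, Jak2 and Tyk2, had -0.02, 0.10 and -0.23. NF-kappaB and cytokine genes had 19 of 34 tested and a median of -0.14 (-0.22 in mice 21 to 30, 0.04 in mice 31 to 40), 15 of them lower, with Nfkb1 at -0.28, Nfkb2 at -0.27, Rel at -0.28 and Ikbkb at -0.29. MHC class I had 14 of 15 tested, 12 of them lower, and a median of -0.08 (-0.18 and 0.07 in the 2 runs). Its shared light chain, B2m, had 0.35, H2-K1 -0.08 and Tapbp -0.19.

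**Figure D3:**
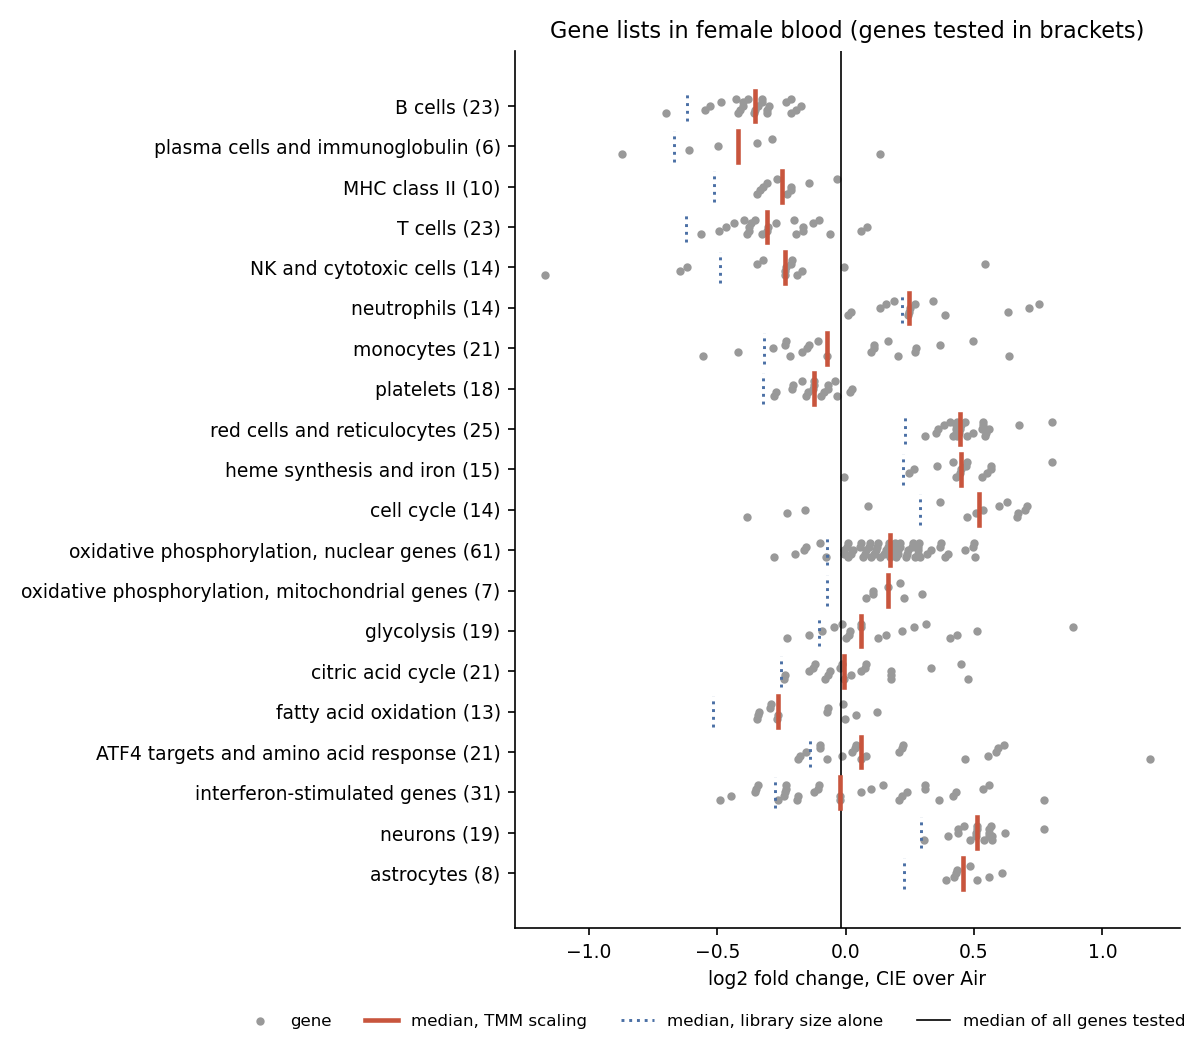
Log2 fold change of CIE over Air for the tested genes of 20 lists, 1 gray point per gene, with the list median under TMM scaling in red, under library size alone in dotted blue, and the median of all genes as a black line. All 23 B cell genes lie below 0 and all 25 red cell genes above it under TMM scaling.

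Transcripts of neuron genes were counted in every female blood library. Of 20 neuron genes 19 were tested, all 19 were higher, and 16 had an unadjusted p under 0.05, against 7.5% of all genes, with a median of 0.51. With library size alone 0 of the 19 had such a p with edgeR, where 1.22% of all genes were higher at it. In mice 31 to 40 the count was 0 as well, where 6.84% of all genes were higher. None of the list passed the adjusted threshold with edgeR or was called by DESeq2. Tubb3 had 0 reads in blood and in brain. Rtn1, a reticulon of the neuronal endoplasmic reticulum and the most abundant of the list, was at 121.0 to 200.9 CPM in Air with a median of 159.6, and at 126.4 to 353.4 in CIE with a median of 217.6. The groups overlapped, with CIE mouse 23 highest and Air mouse 27 lowest (0.56, adjusted p = 0.249). Map1b of microtubules had 0.57, Snap25 0.56 and Syt1, the calcium sensor of transmitter release, 0.62.

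The summed neuron list in blood was 4.90 to 10.9% of the level in brain of the same mice in Air, with a median of 6.20%, and 4.65 to 14.5% in CIE, with a median of 9.23%. The difference lay in the first run. In mice 21 to 30 Air was at 5.34 to 10.9% and CIE at 11.0 to 14.5%, without overlap. In mice 31 to 40 Air was at 4.90 to 9.59% and CIE at 4.65 to 7.42%, with the lower median in CIE. The list median was 0.83 in the first run and 0.19 in the second, and 0.29 with library size alone.

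Astrocyte genes went with the neuron genes. Of 12 members 8 were tested, all 8 higher and 7 at an unadjusted p under 0.05 (7.5% of all genes), with a median of 0.46. In mice 21 to 30 it was 0.76 and in mice 31 to 40 it was 0.22. With library size alone 0 of the 8 had such a p with edgeR (1.22% of all genes were higher at it). In mice 31 to 40 the count was 0 too (6.84% of all genes there). Slc1a2, the glutamate transporter, had 0.56, Aldoc 0.43 and Mt3 0.61. Their sum was at 4.64 to 9.43% of brain level in Air and 5.42 to 14.2% in CIE. Oligodendrocyte genes had 7 of 12 tested and a median of 0.22 (-0.04 with library size alone), from Cldn11 of the myelin sheath at 1.14 to Cnp at -0.31. Cnp stood in blood at 54.2% of its brain level, so that not all of that list marks brain. Of 4 microglia genes 2 were tested, and P2ry12, which platelets express too, had -0.09 and was higher in blood than in brain. Cortical excitatory neuron genes had 3 of 4 tested, and Slc17a7 and Neurod6 had 0.71 and 0.61. Nrgn, the most abundant of that list at 1136 plain CPM and also a platelet transcript, had -0.10, and the summed list had a median of 1472 plain CPM in Air and 1002 in CIE.

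Across all genes the same division held. The 589 genes whose blood level was under 10% of their brain level had 252 members higher and 0 lower at an unadjusted p under 0.05 with edgeR, with a median of 0.48. They thus held 252 of the 589 genes that were higher in the whole comparison. Of the 627 genes at 10 to 20%, 73 were higher (11.6%) and 4 lower (0.638%). Of the 1227 genes over 400%, 97 were higher (7.91%) and 128 lower (10.4%), with a median of -0.04. Over all genes 7.5% were higher and 6.06% lower at that p. The balance of the genes over 400% turned in other fits. It was 220 higher and 145 lower in mice 31 to 40, and 302 and 107 with the percent of brain level as a covariate. In mice 21 to 30, 376 of the 587 genes under 10% were higher at an unadjusted p under 0.05, with a median of 0.78, where all genes gave 752 of 8589. In mice 31 to 40, 8 of 498 were higher and 1 lower at that p, with a median of 0.11, and all genes gave 502 of 7336 higher, a larger share. With library size alone 8 of 589 were higher at that p, near the share over all genes, 96 of 7849. In that fit 0 of 589 were lower, against 1060 of 7849 over all genes, and the median was 0.23 against -0.26.

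**Figure D4:**
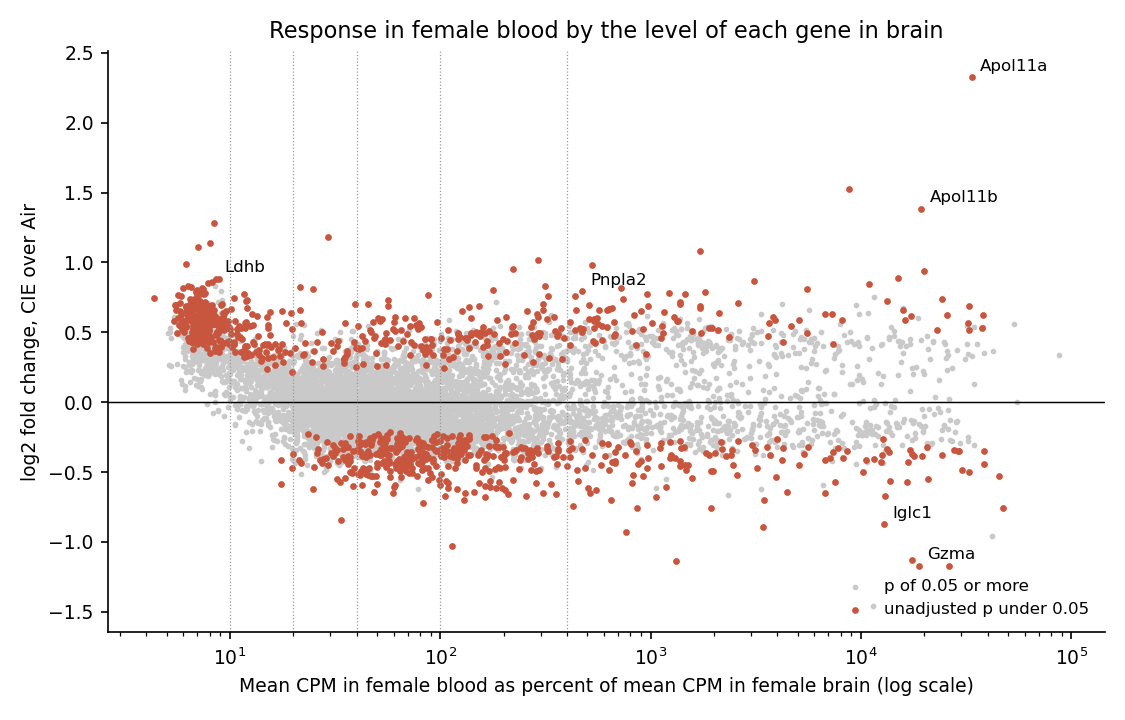
Log2 fold change of CIE over Air for each of 7849 genes against its mean CPM in female blood as percent of that in female brain (log scale), with genes at an unadjusted p under 0.05 in red and dotted lines at 10, 20, 40, 100 and 400%. Genes under 10% have a median of 0.48, and Apol11a, Apol11b and Gzma lie far to the right, at levels higher in blood than in brain.

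When each library's neuron list level was a covariate, edgeR called 0 genes, and 110 were higher and 203 lower at an unadjusted p under 0.05. Apol11a and Gzma then had log2 fold changes of 2.08 and -1.13, close to 2.33 and -1.17 without the covariate, each with an adjusted p of 0.0628. The genes under 10% of brain level had 7 higher and 17 lower at that p, and the B cell list a median of -0.13. The neuron list had a median of 0.03, which the fit sets, since the covariate is the level of that same list. With the percent of brain level as the covariate, 116 of the 589 genes under 10% were higher and 0 lower at that p, with a median of 0.33, and all genes gave 10.8% higher. The neuron list then had a median of 0.36 and 6 genes at that p. In blood Apol11a stood at 33500% and Gzma at 18820% of their brain level. In the fit on percent of brain level their adjusted p was 0.00173 and 0.00563. What part transcripts shared with brain have in these differences was not tested.

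Genes that mark brain regions differed from library to library. Gene sets for the regions were taken as genes of at least 50 CPM in 1 region of the female brain and 4 times either other region, which gave 8 for amygdala, 26 for hypothalamus and 9 for prefrontal cortex. The hypothalamus set stood at 3.51 to 8.08% of its brain level in CIE mice 23, 32 and 35 and Air mice 26, 29 and 39, and at 0 to 1.86% in the other 13. Pmch, a peptide of the lateral hypothalamus that drives feeding, was at 63.9 to 118.4 plain CPM in the 6 libraries and at 0 to 10.7 in the 13. Oxt, the oxytocin precursor, was at 22.4 to 95.1 and at 0 to 5.58. None of the 6 hypothalamic peptides passed the filter for testing.

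Other libraries were high in other genes. Ttr, the thyroid hormone carrier made in choroid plexus, was at 65.6 to 237.1 CPM in CIE mice 22, 25, 31 and 34 and Air mice 38 and 40, and at most at 10.9 in the rest. Slc17a7, the vesicular glutamate transporter of cortex, was at 52.98 plain CPM in Air mouse 30, 46.5 in CIE mouse 33 and 45.5 in CIE mouse 24, and at 0 in Air mouse 39. Both treatments had libraries of each kind. By highest region, 3 CIE and 2 Air libraries went to amygdala, 3 and 3 to hypothalamus, and 4 and 4 to prefrontal cortex. A blood library did not always match its own mouse. In CIE mouse 23 Oxt was at 95.1 CPM in blood and 61.6 in the hypothalamus of that mouse, while Hcrt, the orexin precursor, was at 21.9 in blood and 1013 in the hypothalamus.

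**Figure D5:**
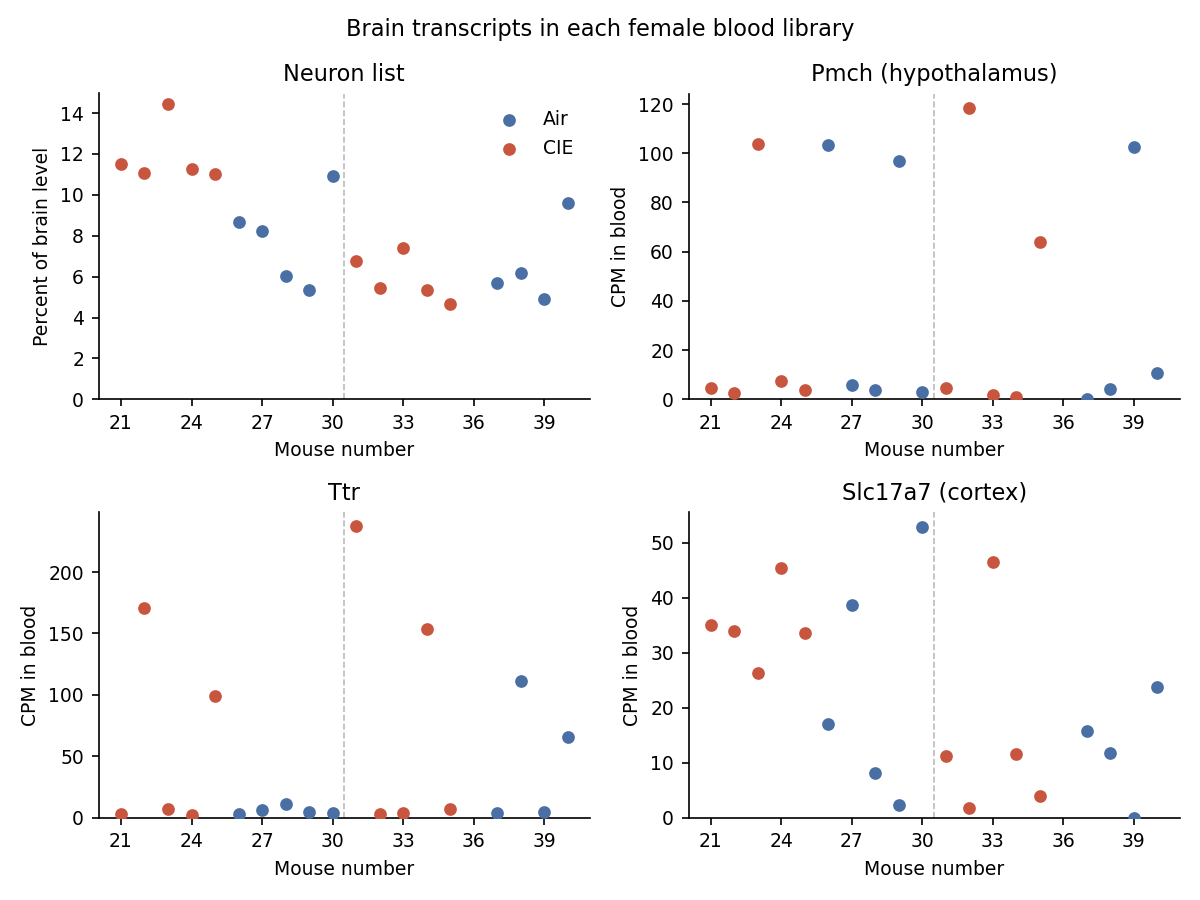
Neuron list in blood as percent of its brain level in the same mouse, and CPM in blood of Pmch, Ttr and Slc17a7, by mouse number, 1 point per female blood library, Air in blue and CIE in red. Pmch is at 63.9 to 118.4 in 6 libraries and at 0 to 10.7 in the other 13.

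Reads on genes of the other sex were counted too. The Y chromosome genes had 5 to 32 reads per female blood library, with a median level of 11.5% of that in male blood and 7.04% of that in male brain. In female brain the level was 0.74% of male brain. Xist in male blood stood at 9.65% of its level in female brain, and in male brain at 0.492%. Medians of the Y genes were 13.9 CPM in Air females and 12.6 in CIE females, with overlapping ranges. Of 12 liver genes only Hp, haptoglobin, which neutrophils also store, was tested. It had 0.14 with CIE mouse 22 at 145.6 normalized CPM, and -0.18 without the 3 libraries low in red cell transcripts. Of 8 skeletal muscle genes none was tested, with sums of 2.08 to 17.8 plain CPM. Where these transcripts came from was not tested.

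Male blood is given for comparison. There 1 of 9584 genes passed with edgeR (0.0104%), Plet1, a surface protein of epithelial cells, at -2.52, which had -0.62 in females (adjusted p = 0.482). At an unadjusted p under 0.05 there were 514 genes in males (5.36%), 145 higher (1.51%) and 369 lower (3.85%). The sex-by-CIE term passed in 0 of 9906 genes with edgeR, with 618 at an unadjusted p under 0.05 (6.24%). The lowest adjusted p was 0.0572 for Pex19, an import factor of peroxisomes, at 0.50 in females and -0.57 in males. Apol11a had 0.87 in males (p = 0.0121) and Gzma -0.52 (p = 0.042), each in the female direction, and the sex term of Apol11a had an adjusted p of 0.784. Mthfd2 had 1.08 in females and 1.18 in males (p = 2.34e-05). List medians in males were 0.12 for B cells, 0.06 for T cells, 0.08 for red cells, -0.01 for nuclear oxidative phosphorylation and 0.18 for neurons, and -0.96 for neutrophils. No test of these medians between sexes was made.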

How the data were processed

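Per-library count files were read as deposited. The values the authors deposited per library are raw read counts, and the matrix the authors deposited holds log2 values, used only for the limma alternative. ERCC rows and summary lines were dropped. Names came from GENCODE M21 on GRCm38, with 54487 identifiers matched exactly, 657 without version and 241 not matched. edgeR 4.0.16 was used with TMM factors, filterByExpr, quasi-likelihood tests and Benjamini-Hochberg adjustment at 0.05. R 4.3.3, DESeq2 1.42.0, limma 3.58.1, the R package data.table (1.17.8) and Python 3.11.15 with pandas 2.3.3, numpy 2.4.6, scipy 1.17.1 and matplotlib 3.10.9 were used. The members and the gene lists were chosen with earlier results of these data known.

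Genes named are those called, the 12 higher and 12 lower of smallest p, and for each list the first 2 tested and the 2 of smallest p. Label-check genes, Jak1, Jak2, Tyk2, Mthfd2, and the first genes of the male and sex-by-CIE fits were added. Other genes are said to be picked after their values were seen. Some genes that this rule covers are not reported here.

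Alternatives were RLE and upper-quartile factors, DESeq2, limma, other filters and thresholds, robust dispersions, 3 covariates, all 37 blood libraries, and leaving out each library. Chosen after seeing the data were the fits without CIE 22, Air 26 and Air 27, with red cell level, region percents or mouse number as covariates, within each run of mouse numbers, and with library size alone. Of 81 pairs of libraries within groups 0 were identical.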

Additional observations from a re-analysis of the deposited data

Results flagged for a closer look

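For 22 measures in each of 2 groups, 44 in all, the library furthest from its nearest neighbor was compared with the spread of its group. Chance alone would mark about 1 in 20 groups if they were independent, and 9 of 44 stood apart. The measures are not independent, since they share libraries and Mthfd2 is also the most abundant gene of the serine and one-carbon list. The 9 lay in Air mouse 26, CIE mouse 22 and Air mouse 28 alone, so no excess over chance is read from the count. Air mouse 26 had 1526 ERCC reads, the next highest Air library 644. CIE mouse 22 stood apart from its group in 4 summed lists, plasma cells and immunoglobulin (757 plain CPM), T cells (1927), neutrophils (11292) and monocytes (5761). Air mouse 28 was highest in serine and one-carbon genes (1034), genes of the amino acid response (3071), interferon-stimulated genes (27503) and Mthfd2 (814.6 normalized CPM). No library was dropped for this.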

How the results depend on the processing

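No paired analysis was possible because CIE and Air are different mice and share no number. The count of 2 called genes was 4 with no filter beyond 1 read, 6 at a minimum count of 30, and 0 with the neuron level as a covariate. It was 4 with the share of unassigned reads as a covariate, 6 in all 37 blood libraries and 15 with DESeq2. In fits chosen after seeing the data it was 0 in mice 21 to 30 and 13 in mice 31 to 40. With each library left out in turn it was 2 to 4, and the 4 came without Air mouse 28. Both called genes passed in all 19 of those fits. The median neuron percent of brain level in Air was 6.20 over 3 regions and 8.64 against hypothalamus alone. The fold changes of the 2 called genes kept their sign in every fit, while several list medians and Atf5 and Fkbp5 turned sign in some fits. The cause was not tested.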
